A study of Mus musculus with 25 samples.

Results

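The Eyes absent genes Eya1, Eya2, Eya3 and Eya4 and the Dachshund genes Dach1 and Dach2 were followed through retinal development in mouse RNA-seq and ATAC-seq libraries. The genes were taken by symbol, whatever their values. They were 6 of 28446 genes in the table of RNA levels, 6 of 23284 genes in the table of ATAC-seq counts over exons, and 10 of 28329 annotated transcription starts with ATAC-seq counts in the 10 kb around them. The 10 starts were 1 each for Eya1, Eya3 and Dach1, 2 each for Eya4 and Dach2, and 3 for Eya2. All 6 genes passed the filter on low RNA values, which was at least 1 FPKM (fragment counts scaled to transcript length and library size) in at least 2 libraries, and which 14276 genes passed.

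Retinal cells of CD1 mice, an outbred strain, had been sorted by green fluorescent protein (GFP). The labels name GFP+ cells as retinal progenitors and GFP- cells as post-mitotic, without naming the reporter, its promoter, or how many animals went into a library. RNA-seq covered both sorts at 3 ages, embryonic days E14 and E18 and, after birth, P2, with 2 libraries in each of the 6 groups. ATAC-seq, which counts transposase cuts in open chromatin, covered GFP+ cells only, with 1 library at E10 (dated E10/11 in its label) and 2 libraries each at E12.5, E14 and E16.5, then at E18, P0 and P2. Nothing in the labels says that 2 libraries of a group came from separate animals, so p-values measure the spread between these libraries, which may be technical. In bulk samples of this kind, fewer cells of a type and less RNA per cell cannot be told apart.

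Eyes absent proteins have no DNA-binding domain of their own: they are recruited to DNA by homeodomain proteins of the sine oculis family, act there as transcriptional co-activators, and carry a protein tyrosine phosphatase. Dachshund proteins are nuclear factors related to the Ski family that recruit co-repressors. Together with PAX and sine oculis factors they make up the retinal determination network, first worked out in the compound eye of Drosophila, and in vertebrates the same families serve the eye, the inner ear, the kidney and muscle.

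Promoter sequences of the members, where available, are shown here beside the ATAC-seq comparisons. Eya1 and Eya2, which also had starts that changed in accessibility, had no sequence in the set used. Among the genes printed, starts of Dach2 and Eya4 changed, while those of Dach1 and Eya3 did not pass the test in the central 1 kb. Sequences are from RefSeq on GRCm38.p6 and run from 250 bases before to 50 bases after the start. They cover 4 of the 6 genes and were matched by symbol to the deposited regions, which are on mm9. The spacing of paired starts also matched for Eya4 and Dach2, while Eya3 and Dach1 were matched by symbol alone. Capitals mark, on either strand, the GC box GGGCGG, the CCAAT box CCAAT, the TATA box TATAAA, the homeodomain core TAATTA and the MEF3 core TCAGGTT, which is bound by sine oculis proteins. These motifs do not overlap one another in the promoters printed.
Eya3, chr4:132638796-132639095 (plus strand): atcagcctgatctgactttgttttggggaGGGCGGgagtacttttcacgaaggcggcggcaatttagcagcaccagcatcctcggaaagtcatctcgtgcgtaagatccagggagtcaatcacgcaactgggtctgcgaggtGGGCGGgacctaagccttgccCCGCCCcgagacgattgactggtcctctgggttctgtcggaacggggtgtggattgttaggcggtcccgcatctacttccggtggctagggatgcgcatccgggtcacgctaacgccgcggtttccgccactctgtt
Eya4, outer start, chr10:23349894-23350193 (minus strand): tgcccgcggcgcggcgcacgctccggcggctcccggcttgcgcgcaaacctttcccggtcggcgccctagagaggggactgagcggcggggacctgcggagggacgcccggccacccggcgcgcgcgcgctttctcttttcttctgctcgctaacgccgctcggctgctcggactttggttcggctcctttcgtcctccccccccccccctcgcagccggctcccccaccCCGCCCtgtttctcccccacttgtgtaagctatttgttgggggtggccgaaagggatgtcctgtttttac
Dach1, chr14:98169716-98170015 (minus strand): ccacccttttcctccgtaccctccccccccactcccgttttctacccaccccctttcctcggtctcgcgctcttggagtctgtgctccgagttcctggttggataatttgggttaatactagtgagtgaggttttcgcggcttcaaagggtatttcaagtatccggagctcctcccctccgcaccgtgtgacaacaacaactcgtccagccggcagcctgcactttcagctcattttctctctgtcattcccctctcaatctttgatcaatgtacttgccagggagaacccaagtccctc
Dach2, upstream start, chrX:113297260-113297559 (plus strand): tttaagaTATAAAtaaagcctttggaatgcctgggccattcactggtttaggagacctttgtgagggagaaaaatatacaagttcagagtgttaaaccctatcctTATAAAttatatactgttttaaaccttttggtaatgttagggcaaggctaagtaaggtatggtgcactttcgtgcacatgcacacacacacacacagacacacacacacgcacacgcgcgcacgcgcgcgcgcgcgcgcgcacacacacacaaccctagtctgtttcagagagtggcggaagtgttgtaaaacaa
Dach2, downstream start, chrX:113298006-113298305 (plus strand): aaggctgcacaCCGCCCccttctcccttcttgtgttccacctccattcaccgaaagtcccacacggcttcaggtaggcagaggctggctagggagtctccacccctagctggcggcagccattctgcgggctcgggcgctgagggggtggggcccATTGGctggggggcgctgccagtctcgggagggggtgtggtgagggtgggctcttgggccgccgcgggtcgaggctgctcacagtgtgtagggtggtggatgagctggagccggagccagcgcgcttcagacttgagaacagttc
The Eya3 promoter held 3 GC boxes, and the outer start of Eya4 and the downstream start of Dach2 held 1 each. A GC box stood in 35.9% of 32544 promoters of this length. The downstream Dach2 promoter also held 1 CCAAT box (37.4% of promoters), and the upstream Dach2 promoter held 2 TATA boxes (13.6%). The homeodomain core (5.29%) and the MEF3 core (4.07%) were in none of these promoters, and the Dach1 promoter held none of the motifs marked. The outer Eya4 promoter was the richest in CpG of those printed, with 36 CpG dinucleotides and 69.3% G and C, against a median of 7 CpG and 53.0% over all promoters. The upstream Dach2 promoter had 15 CpG and 45.3% G and C, and the downstream one, 746 bases further on, had 16 CpG and 66.3%. The inner start of Eya4 lies 53 bases from the outer one, so its promoter is almost the same stretch and is not printed.

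Several libraries stood apart. Both E14 libraries numbered 2 held lens RNA: 8 lens genes, crystallins among them, summed to 107 FPKM in the E14 GFP+ and 4071 FPKM in the E14 GFP- library, and to at most 2.46 FPKM in the other 10. The E14 GFP- library numbered 2 also lacked the neuronal signal of its partner. Its 8 post-mitotic neuron markers summed to 92.4 FPKM, against 6062 FPKM in the library numbered 1, its 10 progenitor markers to 2303 against 498 FPKM, and its 8 periocular mesenchyme markers, all at 1 FPKM or more, to 166 against 1.55 FPKM. Across genes its log2 values had r = 0.988 with the E14 GFP+ library numbered 2 but 0.892 with the other E14 GFP- library, so its label does not match its markers, and it is called by its label here. The labels held elsewhere by these sums. Progenitor markers summed to 1857 to 3649 FPKM in GFP+ and to 498 to 1410 FPKM in the other 5 GFP- libraries. Neuron markers summed to 102 to 288 FPKM in GFP+ and 607 to 6062 FPKM in those GFP- libraries. Pax6, on the progenitor list, went the other way at E18 and P2. It had 203 and 218 FPKM in GFP+ against 433 and 437 in GFP- cells at E18, and 151 and 189 against 405 and 260 at P2. It made up 376 of the 498 FPKM in the E14 GFP- library numbered 1. The 4 E18 libraries carried 2.61 to 9.57% of their FPKM on histone genes, against 0.0338 to 0.0572% in the other 8, so differences between E18 and another age cannot be told apart from that difference in library content. For ATAC-seq, the E10 library and the P2 library numbered 1 had no count on 60 genes of unplaced sequence. The central 1 kb held 30.0% of the counts of the 10 kb regions at E10, 39.4% in the P2 library numbered 2, and 47.1 to 54.3% in the other 11.

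Dach1 RNA was the most abundant of the 6 in every library, and Eya1, Eya4 and Dach2 RNAs were low throughout. On the FPKM scale, which is per transcript length, Dach1 lay between 31.3 and 64.8, Eya3 between 9.86 and 23.1, and Eya2 between 2.08 and 22.2. Dach2 lay between 0.809 and 9.41 FPKM, Eya1 between 0.729 and 9.45, and Eya4 between 0.189 and 3.37. By mean level, Dach1 stood above 85.8% of the genes tested, Eya3 above 58.5%, Eya2 above 39.9%, Dach2 above 22.3%, Eya1 above 18.9% and Eya4 above 15.0%. Dach1 made up 82.6 to 98.8% of the summed FPKM of the Dachshund pair. Below Dach1 the order changed between libraries. Eya2 was ahead of Eya3 in both E14 libraries numbered 1 and behind in the other 10. Dach2 was ahead of Eya2 in the E18 GFP- library numbered 2 and in both P2 GFP- libraries, and Eya1, Eya4 and Dach2 changed places among themselves.

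**Figure D1:**
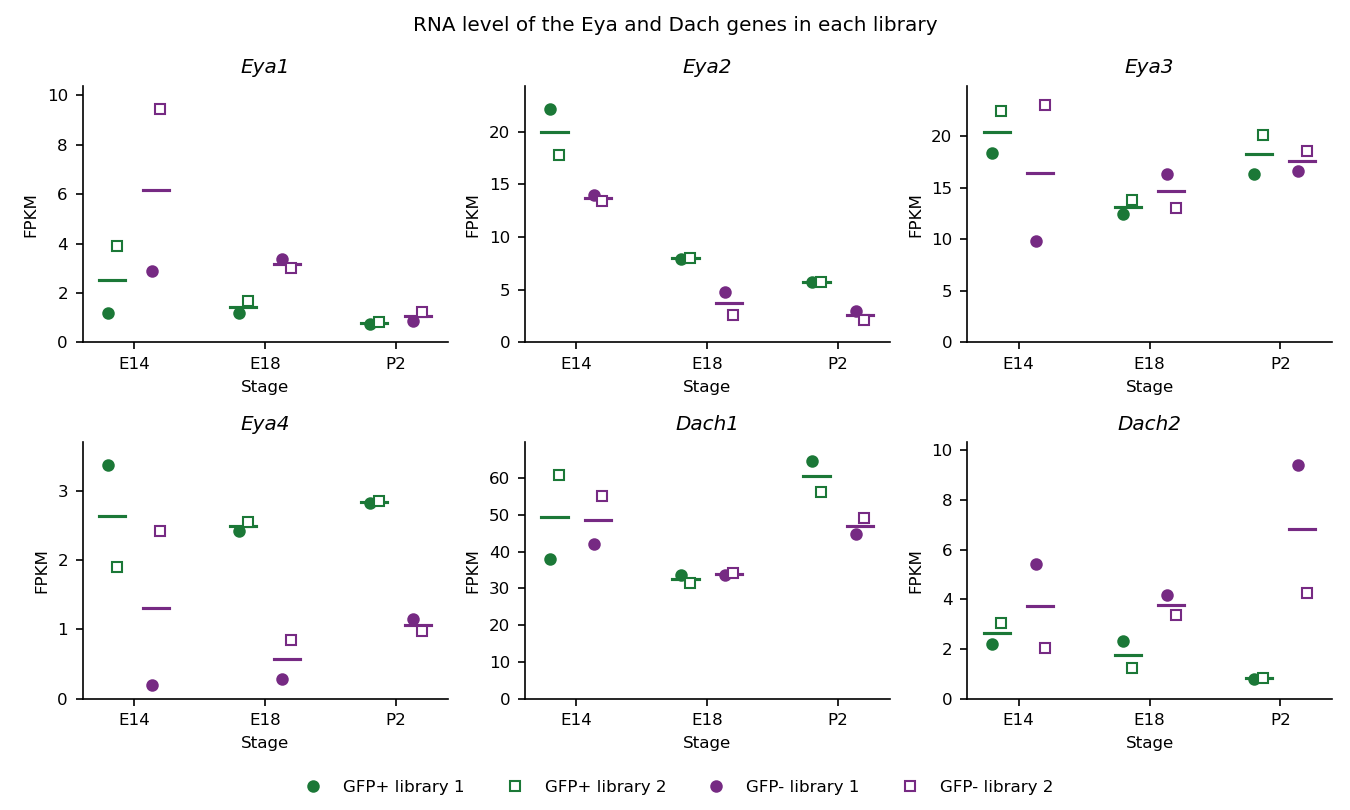
FPKM of the 6 genes in each RNA library, by stage and sort; each panel has its own axis from 0. GFP+ libraries are green and stand left of GFP- libraries in purple, circles are libraries numbered 1, squares are libraries numbered 2, and short lines are group means. Eya2 is highest at E14 in both sorts, and Dach2 at P2 is 0.809 and 0.821 in GFP+ cells against 9.41 and 4.26 in GFP- cells.

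Eya2 RNA was lower at the later ages in both sorts, and with all 12 libraries it was the only one of the 6 genes to pass the test in any RNA comparison. Eya2 encodes a sine oculis co-activator expressed in cranial placodes and in the developing retina. In GFP+ cells it had 22.2 and 17.8 FPKM at E14, 7.93 and 7.99 at E18, and 5.76 and 5.74 at P2. In GFP- cells it had 14.0 and 13.4 FPKM at E14, 4.81 and 2.59 at E18, and 3.02 and 2.08 at P2. In each sort both E14 libraries were above every later one, and both GFP+ values were above both GFP- values of the same age at all 3 ages.

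The falls in Eya2 were tested with limma on log2(FPKM + 1), a scale that understates changes of low genes, over all 12 libraries, with Benjamini-Hochberg adjustment over 14276 genes. In GFP+ cells Eya2 fell by 1.63 on that scale at P2 relative to E14 (SE 0.26, limma adjusted p = 0.0311), a comparison in which 1.15% of all genes tested passed in either direction and 0.217% were lower. At E18 relative to E14 in GFP+ cells it fell by 1.22 (SE 0.26, limma adjusted p = 0.0260), with 8.43% of genes passing. In GFP- cells Eya2 fell by 2.06 at P2 (SE 0.26, limma adjusted p = 0.00569) and by 1.69 at E18 (SE 0.26, limma adjusted p = 0.00491), each relative to E14, where 6.84% and 14.1% of genes passed. Between P2 and E18 the differences were -0.41 in GFP+ and -0.38 in GFP- cells, and neither passed the test (limma adjusted p = 0.423 and 0.418), with 7.98% and 11.1% of genes passing. The interaction of sort with age was not called for any of the 6 genes (0.147% of genes for P2 against E14, and 0.0981% for P2 against E18), so the falls of Eya2 were not shown to differ between GFP+ and GFP- cells.

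The P2 to E14 difference of Eya2 in GFP+ cells passed in the fewest settings of these 4: in 11 of 22 alternative settings, with limma adjusted p from 0.00656 to 0.294 and log2 differences from -1.78 to -1.48. The E18 to E14 difference in GFP+ cells passed in 15 of 22 settings (limma adjusted p 0.00904 to 0.168), and the GFP- differences passed in 20 of 22 at P2 (0.000546 to 0.329) and in 21 of 22 at E18 (0.00167 to 0.221). Without both E14 libraries numbered 2, all 4 falls passed, at -1.78 and -1.37 in GFP+ cells and -2.09 and -1.71 in GFP- cells, for P2 and for E18 in that order.

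The GFP+ minus GFP- difference of Eya2 on the log2 scale was 0.51 at E14, 0.97 at E18 and 0.94 at P2. None of these passed with all libraries (limma adjusted p = 0.344, 0.0756 and 0.142, against 0%, 3.61% and 1.49% of genes passing). At E14 no gene passed this comparison in limma with all libraries, although 2246 had an unadjusted p under 0.05; between 0 and 9 genes passed it in the other settings that kept every library.

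Eya1, a sine oculis co-activator required for the inner ear and kidney in mice, was low and uneven. It had 1.17 and 3.90 FPKM in GFP+ cells, against 2.90 and 9.45 in GFP- cells at E14, 1.17 and 1.68 in GFP+ against 3.38 and 3.005 in GFP- cells at E18, and 0.729 and 0.806 in GFP+ against 0.880 and 1.23 in GFP- cells at P2. The 2 highest of the 12 values were those of the libraries with lens RNA, the E14 GFP+ and E14 GFP- libraries numbered 2. In the same libraries 6 ciliary margin markers summed to 199 and 206 FPKM, against at most 8.54 FPKM in the other 10, and 6 pigment epithelium markers reached 207 FPKM in the E14 GFP- one, against at most 8.92 FPKM in the other 11. The part of these cells in the Eya1 values was not tested. At E18 and P2 both GFP- libraries were above both GFP+ libraries, while at E14 the groups overlapped. With all libraries no difference passed. The GFP+ minus GFP- differences were -0.97 at E14, -0.80 at E18 and -0.21 at P2 (limma adjusted p = 0.342, 0.290 and 0.857), and GFP- cells differed by -1.64 between P2 and E14 (SE 0.49, limma adjusted p = 0.0874).

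Eya3, a broadly expressed member whose phosphatase acts on histone H2AX in the DNA damage response, was nearly even. It had 18.4 and 22.5 FPKM in GFP+ cells, against 9.86 and 23.1 in GFP- cells at E14, 12.5 and 13.8 in GFP+ against 16.4 and 13.04 in GFP- cells at E18, and 16.4 and 20.1 in GFP+ against 16.6 and 18.6 in GFP- cells at P2. Its highest and lowest libraries are the 2 E14 GFP- libraries, and at every age the sorts overlapped. Its GFP+ minus GFP- differences were 0.40, -0.15 and 0.04 at the 3 ages, and none passed.

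Eya4, whose human counterpart is mutated in a form of inherited deafness, had its higher values in GFP+ cells at E18 and P2. It had 3.37 and 1.91 FPKM in GFP+ cells, against 0.189 and 2.42 in GFP- cells at E14, 2.42 and 2.55 in GFP+ against 0.286 and 0.852 in GFP- cells at E18, and 2.82 and 2.86 in GFP+ against 1.14 and 0.979 in GFP- cells at P2. At E18 and P2 both GFP+ libraries were above both GFP- libraries, and at E14 the GFP- library with progenitor and lens RNA fell between the 2 GFP+ values. With all libraries the differences of 0.82, 1.18 and 0.90 did not pass (limma adjusted p = 0.357, 0.138 and 0.379).

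Dach1, which with Six6 has been described as a repressor of the cell cycle inhibitor Cdkn1b in retinal progenitors, was highest at P2 in GFP+ cells by group mean. It had 38.0 and 60.8 FPKM in GFP+ cells, against 42.2 and 55.1 in GFP- cells at E14, 33.68 and 31.3 in GFP+ against 33.70 and 34.3 in GFP- cells at E18, and 64.8 and 56.2 in GFP+ against 44.8 and 49.2 in GFP- cells at P2. The 4 E18 libraries were the lowest of the 12, and at E14 the sorts overlapped. At E18 both GFP- values were above both GFP+ values, by a narrow margin, and at P2 both GFP+ values were above both GFP- values. Group means ran 49.4 ± 16.1 in GFP+ and 48.6 ± 9.09 in GFP- cells at E14, 32.5 ± 1.66 and 34.0 ± 0.426 at E18, and 60.5 ± 6.06 and 47.0 ± 3.09 at P2 (FPKM, SD, n = 2 each). The P2 minus E18 difference in GFP+ cells was 0.87 (SE 0.22, limma adjusted p = 0.0514), just outside the threshold, and it passed in 7 of 22 alternative settings (limma adjusted p 0.000801 to 0.308).

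Dach2, the less studied paralogue of Dach1, went the other way between the sorts at P2. It had 2.20 and 3.06 FPKM in GFP+ cells, against 5.42 and 2.05 in GFP- cells at E14, 2.32 and 1.23 in GFP+ against 4.16 and 3.36 in GFP- cells at E18, and 0.809 and 0.821 in GFP+ against 9.41 and 4.26 in GFP- cells at P2. The GFP- libraries were above the GFP+ libraries at E18 and P2, and the P2 gap was the widest of any of the 6 genes between the sorts at any age. It came to -2.03 on the log2 scale (SE 0.43, limma adjusted p = 0.0680), and it passed in 5 of 22 alternative settings (limma adjusted p 0.00193 to 0.408). Sums of markers of other cell types also differed between the sorts at P2. The 8 post-mitotic neuron markers summed to 129 and 112 FPKM in GFP+ cells, against 607 and 630 in GFP- cells. For 8 amacrine and horizontal cell markers the sums were 83.7 and 68.9 FPKM in GFP+ cells, against 519 and 355 in GFP- cells. Of these, Prox1 went the other way (38.7 and 35.8 against 23.5 and 34.0 FPKM), and Slc6a9 overlapped between the sorts. The 8 photoreceptor markers, of which Otx2 overlapped, summed to 777 and 470 FPKM in GFP+ cells, against 1183 and 2086 in GFP- cells. The part of any of these cell types in the Dach2 difference was not tested.

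Leaving out both E14 libraries numbered 2, an alternative chosen after seeing the data, changed many calls. Of all genes, 49.7% then passed between GFP+ and GFP- cells at E14, 51.1% at E18 and 33.9% at P2, so a member that passed was close to the ordinary case. Eya4 was then higher in GFP+ cells at all 3 ages, by 1.88 at E14, 1.18 at E18 and 0.90 at P2 (limma adjusted p = 0.000571, 0.00120 and 0.00795). Eya2 was higher in GFP+ cells at E18 by 0.97 and at P2 by 0.94 (limma adjusted p = 0.00833 and 0.0151). Eya1 was lower in GFP+ cells at E14 and E18, with differences of -0.85 and -0.80 (limma adjusted p = 0.0199 and 0.00527). At P2 Dach2 was lower in GFP+ cells (-2.03) and Dach1 higher (0.36; limma adjusted p = 0.00193 and 0.0415), and at E14 Eya3 was higher by 0.83 (limma adjusted p = 0.0140). Other marker sums differed between the sorts as well: at P2, 5 Mueller glia markers summed to 634 to 841 FPKM in GFP+ and to 345 to 424 FPKM in GFP- cells. Of these, Glul and Slc1a3 were higher in both GFP+ libraries, and Aqp4 was close to 0. Rlbp1 (188 and 79.5 FPKM in GFP+ against 39.3 and 86.2 in GFP- cells) and Apoe (178 and 75.3 against 60.3 and 133) overlapped. The sum of 5 endothelial markers, 231 to 244 FPKM in GFP+ and 103 to 109 FPKM in GFP- cells, was nearly all Kdr (226 and 233 against 98.8 and 98.6 FPKM). Pecam1 was at 0.166 and 0.144 FPKM in GFP+ against 0.313 and 0.327 FPKM in GFP- cells, Cdh5 and Tie1 were close to 0, and Cldn5 overlapped between the sorts. The E14 GFP- library kept in this fit held erythroid RNA, with 1250 FPKM over the erythroid markers, against at most 75.8 FPKM in the other 11 libraries. The part of these markers in the differences was not tested. The E14 values of this fit rest on 1 library per sort, whose spread is taken to be that of the other groups.

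With age, in the same 10 libraries, Dach1 rose in GFP+ cells at P2 relative to E18 by 0.87 and relative to E14 by 0.65 (limma adjusted p = 0.000801 and 0.0246, with 35.2% and 8.42% of genes passing). In GFP- cells Dach1 rose by 0.45 at P2 relative to E18 (limma adjusted p = 0.0130, 42.7% of genes). Eya1 fell in GFP- cells at P2 by 1.03 relative to E18 and by 0.93 relative to the single E14 library left. Eya3 and Eya4 were higher in GFP- cells at P2 than in that E14 library, by 0.77 and 0.79. With all 12 libraries the Eya3 and Eya4 differences were 0.20 and 0.03. The Dach1 difference between P2 and E14 in GFP+ cells was then 0.32, and none of these passed.

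**Figure D2:**
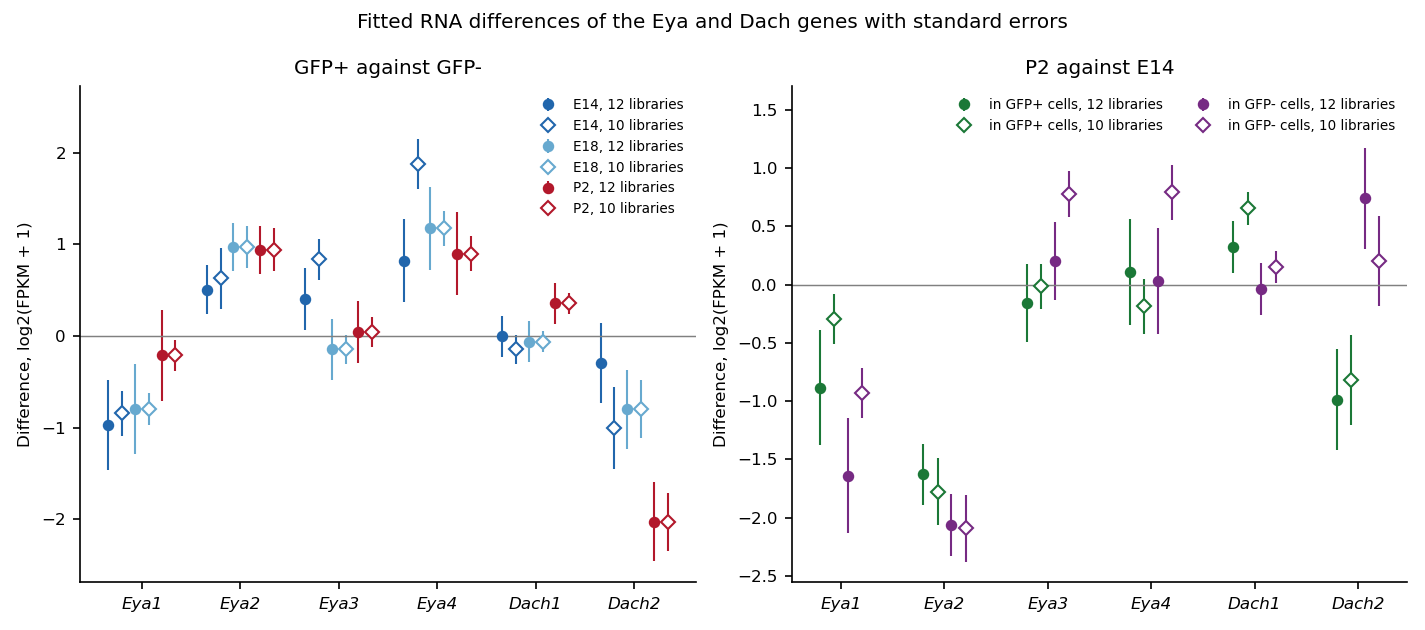
Differences in log2(FPKM + 1) from limma with their standard errors, for GFP+ minus GFP- at E14, E18 and P2 (left) and for P2 minus E14 in GFP+ and in GFP- cells (right). Filled points use all 12 libraries and open diamonds the 10 left without the E14 libraries numbered 2; the differences for Eya2 between P2 and E14 are -1.63 in GFP+ and -2.06 in GFP- cells with all libraries.

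The genes whose log2(FPKM + 1) followed each member most closely over the 12 libraries were, among 10817 genes with a group mean of at least 5 FPKM, Folr1 for Eya1 (Pearson r = 0.95), Pcnp for Eya2 (0.96), Zcchc11 for Eya3 (0.92), Kmt2a for Dach1 (0.96) and Rimbp2 for Dach2 (0.89). For Eya4 it was Dbt (r = 0.98). These values describe 12 points that share 6 groups, and the lens-containing libraries are among them. Folr1, the nearest to Eya1, encodes a folate receptor of epithelia, and Rimbp2, the nearest to Dach2, encodes a presynaptic scaffold protein.

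In GFP+ chromatin the annotated starts differed in where they were open. Counts were taken in 200 bp windows, and the central 1 kb ran from 600 bases before to 400 bases after the start. Central 1 kb, 10 kb and exon values are given as CPM, counts scaled to each library's total of that span with TMM scaling. Values of windows and of stretches of windows are CPM of the 10 kb total, without TMM scaling. On mm9, the starts of Eya1 (chromosome 1, position 14300280, minus strand), Eya3 (chromosome 4, 132194961, plus strand), Dach1 (chromosome 14, 98568984, minus strand), the downstream start of Dach2 (chromosome X, 110411865, plus strand) and the outer start of Eya4 (chromosome 10, 23069749, minus strand) each lay in an open stretch. The 3 Eya2 starts, at positions 165420528, 165455845 and 165480798 of chromosome 2, were weak: an open stretch, with windows at 5 or more times the median window, covered only the first, from 200 bases before to 600 bases after it. The highest windows of the second and the third lay 400 to 200 and 1600 to 1400 bases upstream. The upstream Dach2 start, at position 110411119, had its highest window 600 to 800 bases downstream, which is the peak of the downstream start.

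Accessibility in the central 1 kb was tested with edgeR's quasi-likelihood test over 27585 starts, with Benjamini-Hochberg adjustment. At P0 relative to E12.5, 5 of the 10 starts were lower and none higher, in a comparison in which 45.3% of starts passed (21.5% lower, 23.8% higher). At P2 relative to E14, 3 were higher and 3 lower, against 23.9% of all starts (9.5% higher, 14.4% lower). No member passed the test for a trend over all stages in the central 1 kb, the 10 kb or the exons, where 12.4%, 10.1% and 5.61% of features did. That outcome depended on the setting: each gene but Eya3 passed a trend test at one of its starts or over its exons in at least 1 alternative. The downstream Dach2 start passed the trend in the central 1 kb in 5 of 21 alternative settings, with log2 slopes from -0.19 to -0.09 a stage (edgeR or DESeq2 adjusted p 0.000351 to 0.227), among them without E10 (-0.17, edgeR adjusted p = 0.000351). Eya1 passed it in 3 of 21 settings, all without E10, and Dach1 passed the trend over 10 kb in 3 of 19. Without the P2 library numbered 2, 16982 regions of 10 kb passed the trend, against 2822 with all libraries, and 14029 central spans, against 3411. Over exons, 3 of the 6 genes passed at P0 relative to E12.5 (Dach1 higher, Dach2 and Eya2 lower; 42% of genes passed) and 4 at P2 relative to E14 (Eya2 and Eya4 higher, Dach2 and Eya1 lower; 26.1%). The paired starts of Dach2 share most of their 10 kb and a part of their central 1 kb. Those of Eya4 share nearly all of their central 1 kb, so neither pair is independent.

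Dach2 was less open at P0 than at E12.5 at both of its starts, whose central 1 kb spans overlap in part. At the downstream start, the central 1 kb held 39.6 CPM at E10, 82.6 and 85.9 at E12.5, 70.8 and 61.5 at E14, 71.6 and 72.0 at E16.5, 57.0 and 52.3 at E18, 47.6 and 53.6 at P0, and 50.8 and 40.3 at P2. Apart from the single E10 library, both E12.5 libraries were the highest, and all 6 libraries at E18 or later were below all 6 of E12.5 to E16.5. The log2 difference was -0.74 at P0 relative to E12.5 (SE 0.16, edgeR adjusted p = 2.39e-05) and -0.53 at P2 relative to E14 (SE 0.15, edgeR adjusted p = 0.00370). The difference at P0 passed in 21 of 21 alternative settings (-0.94 to -0.65, edgeR or DESeq2 adjusted p 7.61e-12 to 0.0110). The one at P2 passed in 20 of 21 (-0.71 to -0.33, edgeR or DESeq2 adjusted p 1.16e-07 to 0.150). At the upstream start the differences were -0.78 at P0 relative to E12.5 (SE 0.19, edgeR adjusted p = 0.000333) and -0.20 at P2 relative to E14 (edgeR adjusted p = 0.400). That span held less, with stage means of 11.1 CPM at P0 and 18.7 at E12.5, and is not a separate result. The promoter printed above corresponds, by symbol and spacing, to the highest window of the downstream start. That window, from 200 bases before the start up to it, held 11.3 and 12.2 CPM of the 10 kb total at P0, against 18.2 and 21.1 at E12.5.

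Counts over the 7018 bp of Dach2 exons moved the same way, with 41.5 and 48.9 CPM at P0 against 67.4 and 68.3 at E12.5. The log2 difference over exons was -0.61 (SE 0.16, edgeR adjusted p = 0.00511), with 42% of genes passing, and -0.54 at P2 relative to E14 (SE 0.14, edgeR adjusted p = 0.00537), with 26.1%. GFP+ RNA of Dach2, measured at 3 of these stages, had 2.20 and 3.06 FPKM at E14, 2.32 and 1.23 at E18, and 0.809 and 0.821 at P2, and no difference between these ages passed in limma with all libraries. The exons include the first one, which overlaps the start, so the exon and start values are not independent.

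Dach1 passed the test over the 10 kb around its start but not in the central 1 kb. The central 1 kb held 52.8 CPM at E10, 80.0 and 72.4 at E12.5, 83.2 and 85.9 at E14, 81.4 and 91.2 at E16.5, 81.7 and 76.5 at E18, 78.4 and 77.8 at P0, and 93.4 and 72.9 at P2. On the TMM scale both P0 values lay between the E12.5 values. The log2 difference was 0.03 at P0 relative to E12.5 (edgeR adjusted p = 0.869) and -0.02 at P2 relative to E14. In the whole 10 kb, the CPM were 142 and 159 at P0 against 111 and 99.0 at E12.5, a log2 difference of 0.52 (SE 0.19, edgeR adjusted p = 0.0153), with 61.9% of regions passing. It passed in 17 of 19 alternative settings (0.30 to 0.60, edgeR or DESeq2 adjusted p 2.07e-08 to 0.160).

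The windows, given as CPM of the 10 kb total without TMM scaling, show where the 10 kb around Dach1 differed. The stretch from 400 bases before to 200 bases after the start held 33.5 and 31.9 CPM at P0 and 34.3 and 30.7 at E12.5. The stretch 1200 to 1800 bases downstream, over an exon and intron, held 22.0 and 27.2 CPM at P0 and 16.0 and 16.0 at E12.5. The window 600 to 800 bases downstream, which overlaps an exon, held 7.16 and 9.39 at P0 and 6.05 and 4.30 at E12.5. In both downstream stretches the P0 libraries were above the E12.5 libraries, and at the start they overlapped. These stretches were chosen for their height over all libraries and were not tested singly. Exon counts of Dach1 were higher at P0 than at E12.5 by 0.63 (SE 0.17, edgeR adjusted p = 0.00603), and at P2 relative to E14 they differed by 0.05. Both downstream stretches overlap exons, so the exon and stretch values are not independent.

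Eya1 was less open at the later age in both comparisons. Its central 1 kb held 28.6 CPM at E10, 60.02 and 53.1 at E12.5, 63.0 and 60.8 at E14, 52.6 and 55.4 at E16.5, 47.7 and 41.2 at E18, 45.3 and 40.9 at P0, and 44.3 and 40.7 at P2. On the TMM scale the 6 libraries at E18 or later were below all 6 libraries of E12.5 to E16.5. The log2 difference was -0.54 at P2 relative to E14 (SE 0.14, edgeR adjusted p = 0.00195), and -0.39 at P0 relative to E12.5 (SE 0.15, edgeR adjusted p = 0.0289). The P0 difference passed in 18 of 21 alternative settings (edgeR or DESeq2 adjusted p 2.38e-05 to 0.212). Over the 10 kb the P2 difference was -0.68 (SE 0.13, edgeR adjusted p = 4.83e-05), with 31.2% of regions passing, and it passed in 19 of 19 settings. A separate intronic window, 4600 to 4800 bases downstream of the start, held 1.46 and 1.25 CPM at P0 against 2.85 and 3.09 at E12.5. These window values are of the 10 kb total without TMM scaling.

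Eya4 was more open at both of its starts at P2 than at E14. Around the outer start the central 1 kb held 41.6 CPM at E10, 36.0 and 40.9 at E12.5, 35.2 and 36.9 at E14, 38.9 and 45.9 at E16.5, 39.8 and 44.2 at E18, 45.7 and 47.0 at P0, and 51.4 and 53.5 at P2. On the TMM scale both P2 libraries were the highest of the 13, and both P0 libraries were above both E12.5 libraries. The log2 difference at P2 relative to E14 was 0.54 at the outer start (SE 0.14, edgeR adjusted p = 0.00167) and 0.59 at the inner start (SE 0.14, edgeR adjusted p = 0.000448). The inner start passed in 21 of 21 alternative settings (0.56 to 0.81, edgeR or DESeq2 adjusted p 7.94e-08 to 0.0364). At P0 relative to E12.5 the differences were 0.27 and 0.29, and neither passed (edgeR adjusted p = 0.132 and 0.106). Exon counts of Eya4 were higher at P2 than at E14, by 0.56 (SE 0.15, edgeR adjusted p = 0.00733), but differed by -0.39 between P0 and E12.5 (edgeR adjusted p = 0.0906).

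For Eya2, the member that passed in RNA, the change at the third start rests on few cuts. By mean CPM the first and second starts stood above 45.2% and 41.2% of all starts. At P0 the central 1 kb had 135 and 43 raw counts at the first start and 63 and 25 at the second. At the first start that span held 25.8 CPM at E10, 12.5 and 11.4 at E12.5, 11.8 and 12.2 at E14, 14.5 and 7.68 at E16.5, 8.95 and 7.55 at E18, 11.9 and 7.65 at P0, and 14.3 and 19.0 at P2. At the third start it had 5 and 5 raw counts at P0 and 62 and 72 at E12.5, which is 0.440 and 0.890 CPM at P0 against 3.504 and 5.25 at E12.5. The log2 difference at P0 was -2.81 at the third start (SE 0.69, edgeR adjusted p = 0.000266), -0.89 at the second (SE 0.27, edgeR adjusted p = 0.00382) and -0.24 at the first (edgeR adjusted p = 0.320). Over Eya2 exons, the CPM were 10.3 and 10.8 at P0 against 23.1 and 23.7 at E12.5, a log2 difference of -1.16 (SE 0.30, edgeR adjusted p = 0.00427). In the third start's comparison 21 of 21 alternative settings passed (edgeR or DESeq2 adjusted p 4.26e-06 to 0.0301), and in the second's 20 of 21 (0.000507 to 0.286).

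At P2 relative to E14 the Eya2 starts disagreed with each other and between the P2 libraries. The first start was higher by 0.46 (SE 0.18, edgeR adjusted p = 0.0412), and the second lower (-0.63, SE 0.23, edgeR adjusted p = 0.0314). These passed in 12 and in 10 of 21 alternative settings. Their edgeR or DESeq2 adjusted p ran from 0.00200 to 0.381 at the first start and from 0.00171 to 0.322 at the second. Without the P2 library numbered 2, which had the low central share, the first start differed by 0.25 (edgeR adjusted p = 0.381). Without the P2 library numbered 1, the second differed by -0.42 (edgeR adjusted p = 0.107). Over Eya2 exons the 2 P2 libraries had 13.8 and 24.3 CPM and the E14 libraries 10.1 and 11.3. The log2 difference of 0.80 (SE 0.24, edgeR adjusted p = 0.0152) became 0.36 without the P2 library numbered 2. It ran from 0.36 to 1.21 over 19 settings, with edgeR or DESeq2 adjusted p from 4.44e-07 to 0.180.

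Eya3 passed in no ATAC-seq comparison with all libraries. Its central 1 kb held 37.8 CPM at E10, 42.7 and 42.5 at E12.5, 47.4 and 57.7 at E14, 41.3 and 36.2 at E16.5, 48.4 and 51.3 at E18, 45.8 and 40.2 at P0, and 52.4 and 37.3 at P2. On the TMM scale both E14 values were above those of E12.5 and E16.5, but P0 overlapped E12.5 and P2 overlapped E14. The log2 differences were 0.02 at P0 relative to E12.5 and -0.22 at P2 relative to E14 (edgeR adjusted p = 0.252). Without the P2 library numbered 1 the P2 difference was -0.49 (edgeR adjusted p = 0.0010003), so the pair of P2 libraries decides that value.

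**Figure D3:**
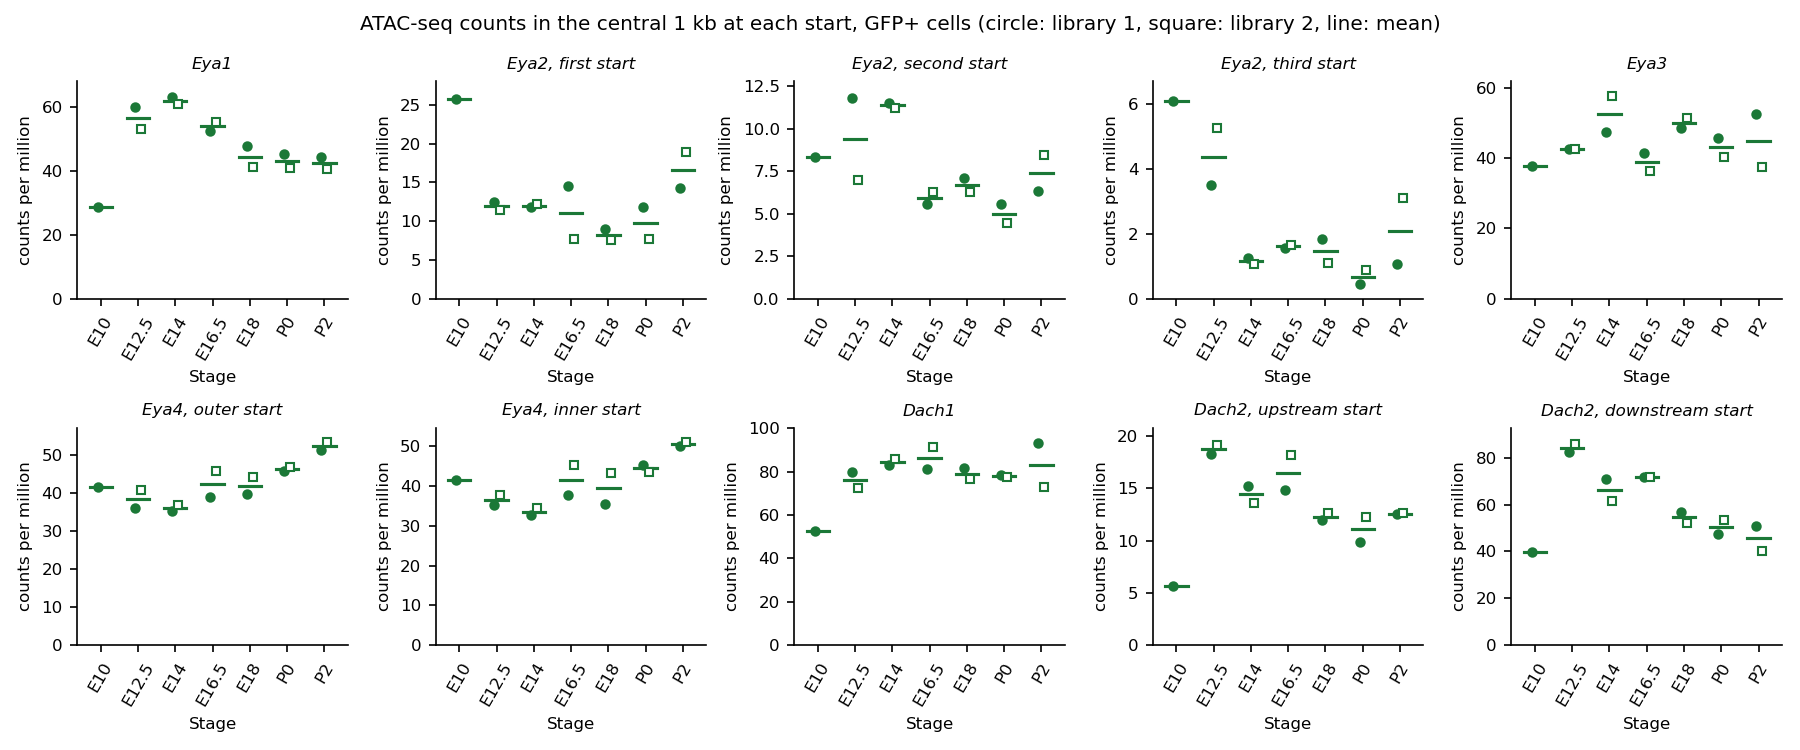
ATAC-seq CPM in the central 1 kb of the 10 annotated starts in GFP+ cells, by stage, with a point for each library and short lines for stage means; each panel has its own axis from 0. The downstream Dach2 start goes down to 47.6 and 53.6 at P0, against 82.6 and 85.9 at E12.5. On the TMM scale shown, the outer Eya4 start is highest at P2.

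**Figure D4:**
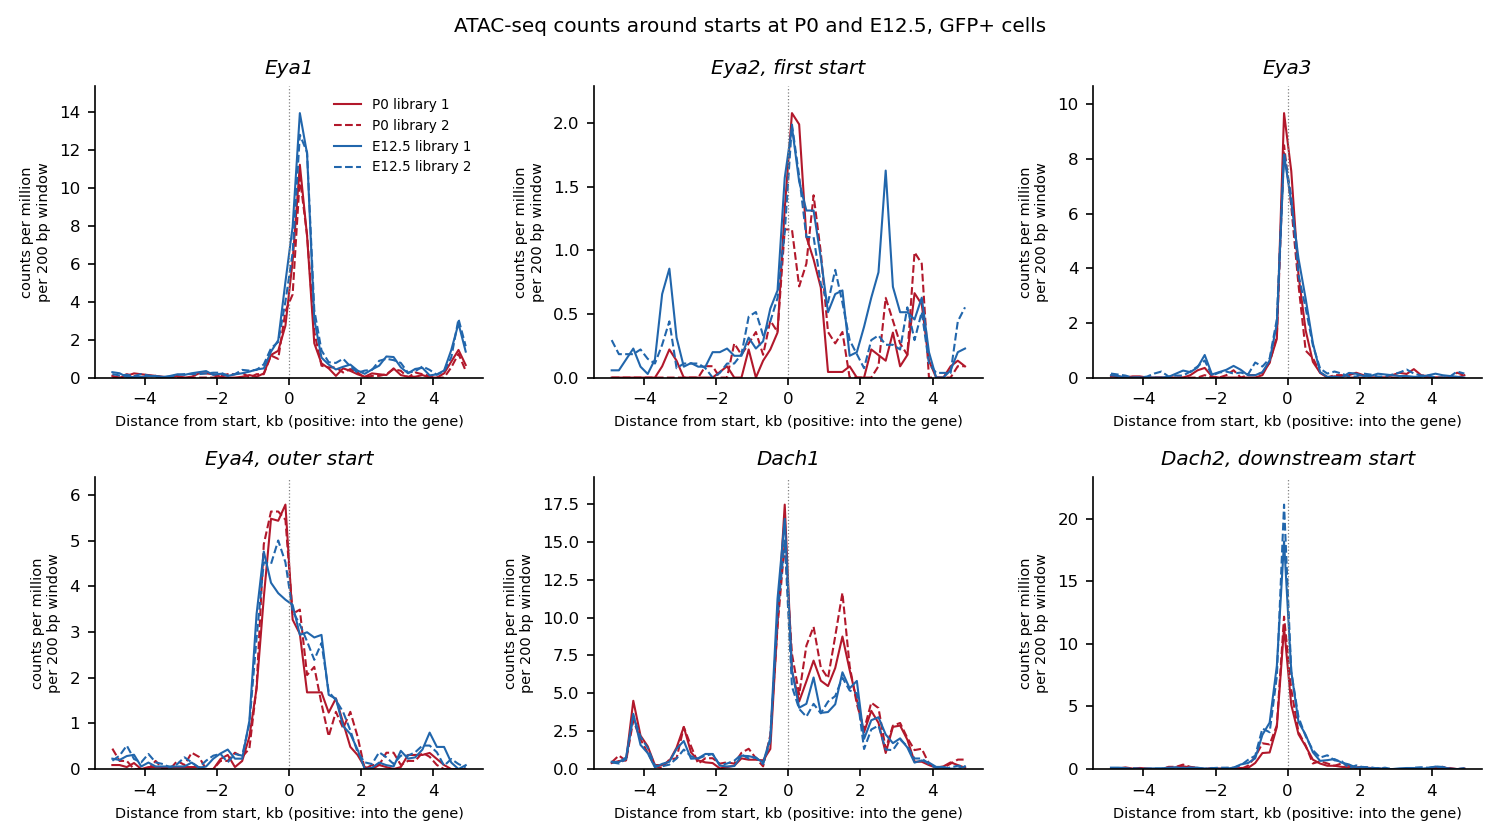
ATAC-seq CPM in 200 bp windows from 5 kb before to 5 kb after 6 starts, scaled to the 10 kb total without TMM. Both P0 libraries are red and both E12.5 libraries blue. At Dach1 the peak at the start overlaps between the ages and the one 1200 to 1800 bases downstream is higher at P0, and at the downstream start of Dach2 the whole peak is lower at P0.

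The partners of these families were read by a list of 29 genes: sine oculis, PAX and teashirt factors, the Ski family, co-repressors, DNA damage partners of the Eya phosphatase, and genes described as targets. In RNA, 24 of the 29 passed the filter. Between the sorts, 1 of 24 passed at E18, Pax6, which was lower in GFP+ cells (-1.04, limma adjusted p = 0.0439), and none at E14 or P2. In GFP+ cells 1 of 24 passed at P2 relative to E14 and 3 of 24 at E18 relative to E14. In GFP- cells 2 of 24 passed at P2 and 4 of 24 at E18, each relative to E14. These counts are close to the shares of all genes that passed, given above.

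Cdkn1b, the cell cycle inhibitor described as a Dach1 and Six6 target, was higher at the later ages in both sorts: by 1.03 at P2 and 0.83 at E18 in GFP+ cells (limma adjusted p = 0.0428 and 0.0277), and by 1.19 and 0.76 in GFP- cells (limma adjusted p = 0.00932 and 0.0282), all relative to E14. Six2 was higher in GFP- cells at P2 than at E14 by 1.59 (limma adjusted p = 0.0245), with 3.57 and 4.49 FPKM at P2 against 0.588 and 0.739 FPKM at E14. The Ski relative Skil was higher at E18 than at E14, by 0.80 in GFP+ and 1.004 in GFP- cells (limma adjusted p = 0.0211 and 0.00581). Six3, an eye field factor, had 13.6 to 17.2 FPKM in the 4 E18 libraries and 74.4 to 157 in the other 8, with differences at E18 relative to E14 of -2.85 in GFP+ and -2.67 in GFP- cells (limma adjusted p = 0.00176 and 0.00180). Six3 overlaps an antisense gene, and without a stated strand the reads of that pair cannot be told apart.

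In GFP+ chromatin the partners went mostly one way at P0 relative to E12.5. Of 29 genes, 16 had a start whose 10 kb was more open and 4 one that was less open, against 29.9% and 32% of all regions; genes with several starts had more chances to pass. Six3 was higher by 1.16, Six6 by 0.86, Ccnd1 by 0.81 and Cdkn1b by 0.68 (edgeR adjusted p = 4.37e-06, 7.64e-05, 0.000636 and 0.000773), while Gdnf was lower at each of its 3 starts (-0.79 to -0.62) and Ccna1 was lower too (-0.43, edgeR adjusted p = 0.00298). Among the members themselves, 1 of 10 regions, that of Dach1, was higher and 6 were lower. At P2 relative to E14, 2 of the 29 partners were higher and 5 lower, and 1 member region, the inner Eya4 start, was higher and 3 were lower, against 14.7% and 16.5% of all regions. The inner Eya4 region (0.32, edgeR adjusted p = 0.0459) passed in 8 of 19 alternative settings (edgeR or DESeq2 adjusted p 0.000111 to 0.210). That of the outer start, 53 bases away, did not pass (0.30, edgeR adjusted p = 0.0643).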

How the data were processed

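RNA levels are FPKM per gene, deposited by the authors; the unit was inferred from the values and raw RNA counts were not used here. The differences between values held no steps that give back whole reads (the fullest bin held 4.49 to 11.3% of genes), so RNA depth is unknown. ATAC-seq values are raw counts per gene over exons and per 200 bp window of the 10 kb around each start, deposited by the authors on mm9. HISAT2, Bowtie2, featureCounts 1.5.3, SAMtools 1.5, Picard 2.10.7 and bedtools 2.26.0 are named, with no role given, per the submitters' processing notes; strand use is not given in the sources used here. ATAC-seq totals were 1474790 to 15915391 counts over exons, 11176227 to 94662422 over the 10 kb regions and 3805153 to 49447267 over the central 1 kb; the number of cuts limits the low starts most. All sample columns were used.

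RNA was tested with limma 3.58.1 in R 4.3.3 (log2(FPKM + 1), intensity trend, 1 model over the 6 groups of 12 libraries; 11 contrasts). ATAC-seq counts were tested with edgeR 4.0.16 (TMM scaling, filterByExpr, quasi-likelihood test, 1 model over the stages; 9 contrasts). Adjusted p is Benjamini-Hochberg over all features tested, the threshold was 0.05, and the SE of an edgeR difference is its size divided by the square root of F. The scripts were tested on simulated data. Alternatives were pseudocounts of 0.1 and 0.5, other filters and scalings, DESeq2 1.42.0 for counts, a replicate block, other windows, and each library left out. Genes named are the 6 members, up to 12 called or central genes of the fixed partner list of 29, and the nearest gene by correlation. The values of 1 partner gene are not reported here. The members and lists were chosen with earlier results of these data known. Deviations of same-numbered libraries had r over 0.1 in 3 of 15 pairs of RNA groups (-0.558 to 0.362; 0.362 between the E14 sorts) and in 3 of 15 pairs of ATAC-seq stages over exons, 3 in the central 1 kb and 4 over the 10 kb (-0.387 to 0.432 there; E12.5, E16.5 and P2 at 0.410 to 0.432 with one another). Not every pair passed 0.1, so the numbers were not taken as pairs.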

Additional observations from a re-analysis of the deposited data

How the results depend on the processing

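Of 2994 values of the 6 genes under the alternatives, 2793 stayed on the same side of the threshold, 74 were weaker, 127 were stronger and none that was called changed sign; 100 with no call in either fit changed sign and count as the same. For the partner genes, 4688 of 5144 stayed, 199 were weaker, 252 stronger and 5 changed sign, and 151 with no call changed sign. Those 5 were a Pax6 start at P2 against E14 (0.47 in the central 400 bp and 0.50 in the window from 400 bases before to 600 bases after the start), the 10 kb regions of Skil (0.27) and Six6 (0.27) at P2 against E14 without the P2 library numbered 2 (-0.36 each without the other P2 library), and Six3 RNA in GFP- cells at P2 against E14 without both E14 libraries numbered 2 (-0.51). The cause was not tested.

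Counts of genes called in RNA moved widely with the E14 libraries. Without both E14 libraries numbered 2, the counts were 6967 at E14, 7169 at E18 and 4753 at P2 between the sorts; 1181, 2726 and 4937 in GFP+ cells for P2 against E14, E18 against E14 and P2 against E18; 6520, 6593 and 5991 in GFP- cells for the same ages; and 3506 and 423 for the interactions of sort with P2 against E14 and against E18. With all libraries these 11 counts were 0, 516, 212, 164, 1203, 1139, 976, 2017, 1586, 21 and 14. With only the libraries of a contrast they were 7945 at E18 and 2746 at P2 between the sorts, 0 for P2 against E14 and 5311 for P2 against E18 in GFP+ cells, 0, 45 and 4459 in GFP- cells, and 0 and 420 for the interactions. With no filter, 9 genes were called at E14, 970 at E18 and 104 for the second interaction, and with no intensity trend 2 at E14. Asking for 1 FPKM in 4 libraries gave 13 and 3 for the interactions. A pseudocount of 0.1 gave 143 at E18 and 0 and 1 for the interactions, and one of 0.5 gave 4 and 4. Quantile scaling gave 944 at E18 and 10 for the first interaction, and leaving histone, mitochondrial and abundant noncoding genes out of the library total gave 1157 at E18, 358 at P2 and 1476 for P2 against E14 in GFP- cells.

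A replicate block gave 269 calls at E18 and 129 at P2 between the sorts, 92 for P2 against E14 in GFP+ cells, and 2 and 1 for the interactions. The labels do not make the numbers pairs, and the block is reported for completeness.

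For ATAC-seq, DESeq2 called 2471 genes over exons for the stage trend, against 1239 with edgeR. Without the E10 and the P2 library numbered 1, P2 against E14 gave 13176 calls over exons, 21098 over 10 kb and 16183 over the central 1 kb, against 5762, 8699 and 6602, and P0 against E12.5 gave 16600 over the central 1 kb, against 12500.

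Leaving out a single library moved counts widely. Between the sorts the range was 0 to 6844 at E14, 9 to 6011 at E18 and 29 to 3370 at P2. For P2 against E14, E18 against E14 and P2 against E18 it was 15 to 1813, 359 to 3573 and 351 to 3570 in GFP+ cells, and 99 to 5272, 518 to 6547 and 412 to 4619 in GFP- cells. The interactions ranged from 1 to 2952 and from 1 to 169. Leaving out either E14 GFP- library raised these counts alike in several comparisons (5943 without number 1 and 6011 without number 2 between the sorts at E18; 1805 and 1813 for P2 against E14 in GFP+ cells), but not between the sorts at E14 (128 and 6844). In ATAC-seq, P0 against E12.5, P2 against E14 and the trend ranged over 3286 to 12940, 2402 to 13202 and 289 to 9361 genes over exons, over 10930 to 21717, 3878 to 21100 and 1371 to 16982 regions of 10 kb, and over 7438 to 16594, 2908 to 16210 and 1908 to 14029 central spans; the highest trend count of each came without the P2 library numbered 2.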
